A study of Homo sapiens with 9 samples.

Results

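Lipid droplet genes in this work are 10 genes listed by name: the perilipins PLIN1, PLIN2, PLIN3, PLIN4 and PLIN5, the triglyceride synthesis enzymes DGAT1 and DGAT2, the triglyceride lipase PNPLA2, and the lipase inhibitors HILPDA and G0S2. All 10 were found among the 26475 gene symbols of the count table. The rule is a list of names with no threshold on a measured value. The list was drawn up with earlier results of these data known, so the counts of its genes below describe it and do not test it. mRNA was sequenced from A375, an established human melanoma cell line with mutant BRAF, after 24 h with the vehicle DMSO alone or with TP-472 at 5 µM or 10 µM, a small molecule that inhibits the bromodomains of BRD9 and BRD7. Each of the 3 groups held 3 libraries, described as biological replicates, and all 9 came from this single cell line. The p-values below measure only the spread between these libraries, and no compound other than TP-472 was given.

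Lipid droplets are the stores of neutral fat inside cells. A core of triglyceride and sterol ester is wrapped in a single layer of phospholipid, and perilipins coat that layer and regulate access of lipases to the fat beneath. Triglyceride is completed by DGAT1 and DGAT2, which add the last fatty acid to diacylglycerol. PNPLA2, also called ATGL, removes the first fatty acid when the store is used, and HILPDA and G0S2 are small proteins that bind PNPLA2 and inhibit it. HILPDA is a known target of the hypoxia-inducible factors (HIF), and several perilipin genes are known targets of the PPAR family of nuclear receptors.

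The upstream sequences of PLIN2 and PLIN4 are shown because these perilipin genes were lower at both doses. The 250 bases before the start site, written 5′ to 3′ along each gene, come from RefSeq on GRCh38.p14. Its promoter table held 7 of the 10 genes, PLIN2 and PLIN4 among them. HILPDA, which was also lower at both doses, had no entry there and was not searched, nor were DGAT1 and DGAT2. PLIN2 lies on the minus strand, and its upstream bases are chr9:19127493-19127742. They lie inside the annotated span of the gene, 19108375 to 19149290, so the start site used is not its outermost one. Bases before the outermost start of PLIN2 were not searched. PLIN4 is also on the minus strand, at chr19:4518487-4518736. Capitals mark ACGTG and GCGTG, the core letters that HIF binds, found on either strand.
PLIN2: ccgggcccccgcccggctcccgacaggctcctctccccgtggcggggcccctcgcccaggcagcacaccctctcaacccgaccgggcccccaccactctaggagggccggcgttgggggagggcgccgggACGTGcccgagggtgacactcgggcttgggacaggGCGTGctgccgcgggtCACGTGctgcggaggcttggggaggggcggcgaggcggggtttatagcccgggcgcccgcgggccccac
PLIN4: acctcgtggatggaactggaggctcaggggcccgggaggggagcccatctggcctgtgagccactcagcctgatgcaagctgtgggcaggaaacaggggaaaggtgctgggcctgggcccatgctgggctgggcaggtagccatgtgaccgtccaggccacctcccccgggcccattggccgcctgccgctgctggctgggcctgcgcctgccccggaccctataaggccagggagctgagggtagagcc
PLIN2 held 3 matches to ACGTG and 1 to GCGTG, and 2 of the 3 ACGTG matches overlap on opposite strands in a palindrome between 69 and 64 bases before the start. PLIN4 held none of these letters. A match to ACGTG stood in 18.7% of the 27305 upstream sequences of the table and a match to GCGTG in 31.9%, and 3.26% held 4 or more matches when both strands are counted. The GC content of these bases was 78% in PLIN2 and 69.2% in PLIN4, and the shares over all sequences were not matched for it. A direct repeat of AGGTCA with 1 base between the copies and at most 2 mismatches in all, the form PPAR binds with RXR, was sought. It was in neither of these windows and in 2.56% of all upstream sequences, and bases outside the windows were not searched. Among the other genes found in the table, which did not pass the test described below, G0S2 held 4 matches in all, PLIN3 3 and PLIN5 2, while PLIN1 and PNPLA2 held none. Matches were therefore not limited to genes that fell. These are matches of letters in a short window and no binding was measured.

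The libraries held 42483091 to 51298130 expected counts each, and ribosomal RNA genes took 8.2% to 19.9% of them. Levels are given as CPM, counts per 1000000 counts of the library after scaling by the TMM method. Of the melanoma and melanocyte markers, 7 of 11 were at a mean of 1 CPM or more in every group, with CSPG4 the highest in DMSO at 704 CPM and SOX10 at 417 CPM, while the pigment enzyme gene TYR was at 0 in all libraries. The summed level of that list was 1381 to 1390 CPM in DMSO, 1111 to 1154 CPM with 5 µM and 850 to 927 CPM at 10 µM, and its part in the results below was not tested. Most of that drop was CSPG4, with means of 704, 446 and 229 CPM in the 3 groups, while SOX10 had means of 417 CPM in DMSO and 391 CPM at 10 µM and MCAM 222 and 219 CPM. The 8 adipocyte markers together summed to 5.81 to 8.85 CPM in every library, with ADIPOQ and LEP at 0 in the DMSO libraries. The 6 leukocyte markers summed to 54.0 to 60.2 CPM in DMSO, 84.1 to 85.9 CPM with 5 µM and 88.5 to 134 CPM at 10 µM, almost all of it CD68, and PTPRC, a marker of leukocytes in general, had means of 0.0280 to 0.211 CPM. Replicate 1 at 10 µM stood apart from the others: gene length and GC content together explained 19.0% of the variance of its deviation from the group mean, against 10.6% and 12.3% in the other 10 µM libraries and at most 1.75% in the rest. It was the highest of the 10 µM libraries for 8 of the 10 genes, all but PLIN4 and DGAT2, so 10 µM values without it are given for the members whose value moved.

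At both doses HILPDA, PLIN2 and PLIN4 fell, and no lipid droplet gene passed the test given below as higher. HILPDA was lowered the most at 5 µM, to 0.358 of its DMSO level, and PLIN4 the most at 10 µM, to 0.250. A gene was taken as changed when edgeR's quasi-likelihood test gave an adjusted p under 0.05 over the 16417 genes tested and the fold change was at least 1.5. With 3 of 10 genes down at 5 µM, the background was 2.72% of all genes tested down and 2.14% up. With 3 of 10 down at 10 µM, it was 10.5% down and 8.57% up. Between the doses 1 of 10, PLIN4, was lower at 10 µM than at 5 µM, against 2.59% of all genes down and 1.42% up. None was up in any of these comparisons by edgeR, DESeq2 or limma-voom; at an unadjusted p under 0.05 the number up was 0 by edgeR in all 3 comparisons and 1 by each of the other tools at 10 µM against 5 µM. Both doses were compared with the same DMSO libraries, so the results at 5 µM and 10 µM are not independent. The median log2 fold change of the 10 genes was -0.31 at 5 µM and -0.02 at 10 µM, while the median of all genes tested was 0.01 at each dose. In these bulk samples, fewer cells with a transcript and less of it per cell cannot be told apart.

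**Figure D1:**
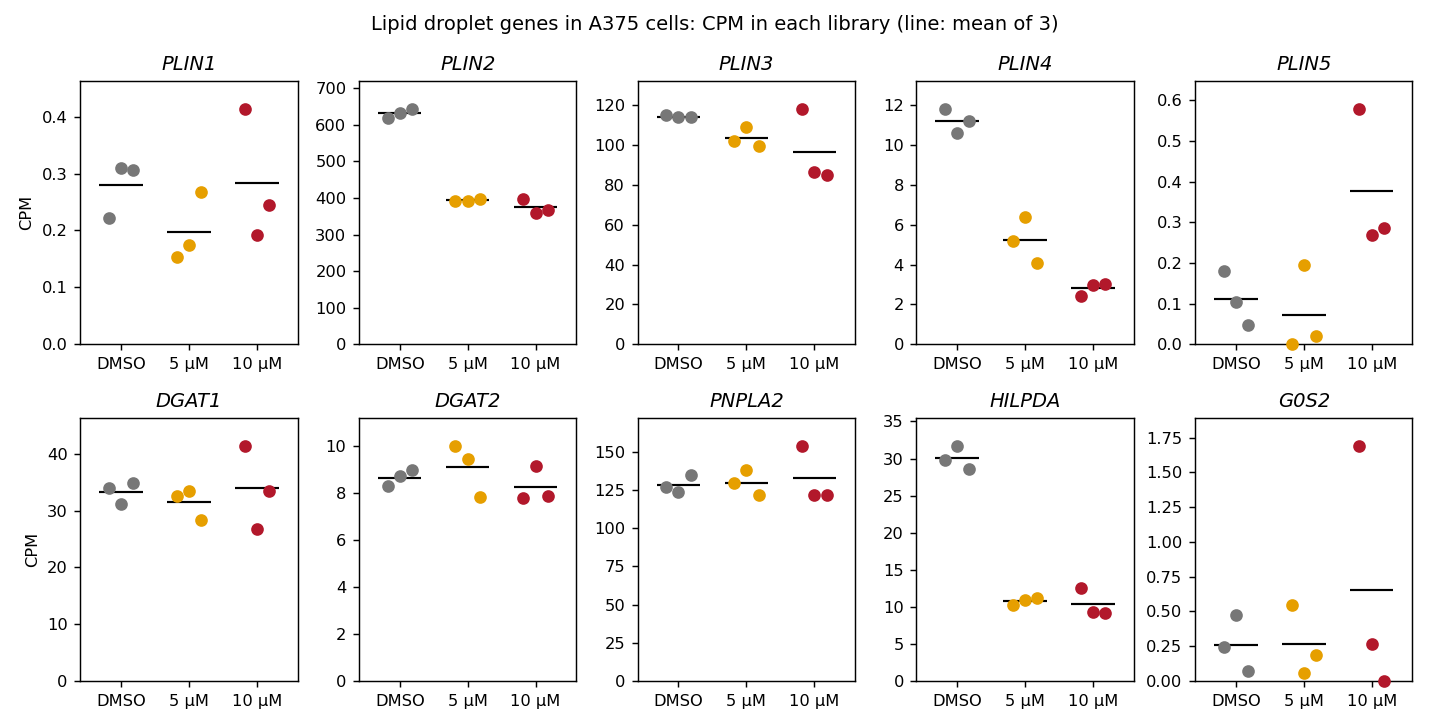
Each panel plots 1 gene, with CPM on the vertical axis from 0 and a point for each of the 3 libraries in DMSO, 5 µM and 10 µM, and a line at the group mean. HILPDA, PLIN2 and PLIN4 separate DMSO from both doses, and for 8 of the 10 genes replicate 1 is the highest of the 10 µM libraries.

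Among the perilipins, PLIN2, the coat protein of droplets in most cells other than fat cells, was by far the most abundant. Its level was 620, 633 and 643 CPM in the DMSO libraries, 393, 393 and 397 CPM at 5 µM, and 397, 360 and 367 CPM at 10 µM. Every treated library lay below every DMSO library, and the ranges of the doses overlapped. PLIN2 fell by 37.6% at 5 µM, a log2 fold change of -0.68 (SE 0.06, edgeR adjusted p = 0.000187). At 10 µM it fell by 40.7%, a log2 fold change of -0.75 (SE 0.06, adjusted p = 1.86e-05). Between the doses the log2 difference was -0.07, with a 95% interval of -0.21 to 0.07, so no difference between the doses was detectable. Without 10 µM replicate 1 the value at 10 µM against DMSO was -0.80, and that between the doses was -0.12 (adjusted p = 0.011), far short of a 1.5-fold change. PLIN2 lies on chromosome 9 at 19108375 to 19149290 of GRCh38, on the minus strand.

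PLIN4, a perilipin with a long run of amphipathic repeats that coats newly formed droplets, was present at a far lower level. It stood at 11.8, 10.6 and 11.2 CPM in DMSO, at 5.17, 6.37 and 4.09 CPM at 5 µM, and at 2.40, 2.96 and 3.04 CPM at 10 µM, and none of the 3 groups overlapped another. The deposited counts behind these levels ran from 475 to 586 in DMSO, 199 to 329 with 5 µM and 116 to 154 at 10 µM. Relative to DMSO, PLIN4 fell by 53.5% at 5 µM, a log2 fold change of -1.10 (SE 0.18, edgeR adjusted p = 0.00387). At 10 µM it fell by 75.0%, a log2 fold change of -2.00 (SE 0.18, adjusted p = 3.39e-05). The step from 5 µM to 10 µM was a further log2 change of -0.90 (SE 0.18, adjusted p = 0.0159). That last difference did not pass when only the libraries of the doses entered the fit (log2 -0.88, adjusted p = 0.117), without 5 µM replicate 1 (-0.91, adjusted p = 0.0551) or without 5 µM replicate 2 (-0.73, adjusted p = 0.0646). Without 10 µM replicate 1 the value at 10 µM against DMSO was -1.90. The gene lies on chromosome 19 at 4502180 to 4518465. PLIN3 lies on the same chromosome at 4838341 to 4867768 and PLIN5 at 4522531 to 4535224, and all of them are on the minus strand.

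PLIN3, which moves between the cytosol and the surface of young droplets, did not pass the test. Its level was 115, 114 and 114 CPM in DMSO, 102, 109 and 99.5 CPM at 5 µM, and 118, 86.3 and 85.1 CPM at 10 µM. The 5 µM libraries lay below the DMSO libraries, while at 10 µM replicate 1 lay above DMSO and the remaining libraries below it. The log2 fold change was -0.14 (95% interval -0.41 to 0.13) at 5 µM and -0.24 (-0.51 to 0.03) at 10 µM, with adjusted p-values of 0.549 and 0.149. Without 10 µM replicate 1 the 10 µM value was -0.42 with an adjusted p of 3.08e-06, still short of a 1.5-fold change.

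PLIN1, the perilipin of fat cells, and PLIN5, that of heart, muscle and other tissues that burn fat, were close to the limit of detection. PLIN1 had 7 to 20 counts per library, or 0.153 to 0.413 CPM, with overlapping ranges in the 3 groups and log2 fold changes of -0.49 (95% interval -1.83 to 0.86) at 5 µM and 0.02 (-1.30 to 1.34) at 10 µM, the latter -0.35 without 10 µM replicate 1. PLIN5 had 9, 5 and 2 counts in DMSO, 0, 10 and 1 at 5 µM, and 28, 14 and 14 at 10 µM. The library without a count allows a level of up to 0.0657 CPM, taking 3 counts as the limit and covering counting error only. All 10 µM libraries lay above all others for PLIN5, but the log2 fold change of 1.73 against DMSO had an interval from -0.57 to 4.04 and an adjusted p of 0.227, and it was 1.29 without 10 µM replicate 1. An annotated protein-coding gene on the same strand, which is not in the count table, shares 21.7% of the PLIN5 exon length. PLIN5 entered the test through its 10 µM libraries: with the DMSO and 5 µM libraries alone it was filtered out for low counts.

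Levels of different genes were compared as CPM per kilobase of annotated exon, which is approximate because the isoforms in use were not resolved. In DMSO the order from the top was PLIN2 at 122 to 126, PLIN3 at 40.5 to 40.7, PNPLA2 at 32.4 to 35.2, HILPDA at 13.8 to 15.3, DGAT1 at 7.53 to 8.43, PLIN4 at 1.63 to 1.81 and DGAT2 at 1.05 to 1.13 CPM per kilobase, and none of these neighbouring ranges overlapped. Below them came G0S2 at 0.0819 to 0.546, PLIN1 at 0.0583 to 0.0813 and PLIN5 at 0.00982 to 0.0376 CPM per kilobase, with the lowest G0S2 library level with the highest PLIN1 library. At 10 µM HILPDA, at 4.44 to 6.03 CPM per kilobase, stood below DGAT1 at 6.48 to 10.0, and PLIN4, at 0.369 to 0.467, stood below DGAT2 at 0.983 to 1.16. The ranges of PLIN3 and PNPLA2 overlapped at 10 µM. Of the summed perilipin level per kilobase, PLIN2 held 74.6% ± 0.414 (SD, n = 3) in DMSO, 67.3% ± 1.22 at 5 µM and 68.0% ± 2.93 at 10 µM. The share of PLIN3 was 24.3% ± 0.362, 31.9% ± 1.08 and 31.4% ± 2.97 in the same groups, and that of PLIN4 1.03% ± 0.0638, 0.694% ± 0.143 and 0.402% ± 0.0837. The PLIN2 share was lower in all treated libraries than in any DMSO library.

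HILPDA, the hypoxia-inducible inhibitor of PNPLA2, had 29.8, 31.7 and 28.6 CPM in DMSO, 10.2, 10.9 and 11.2 CPM at 5 µM, and 12.5, 9.29 and 9.19 CPM at 10 µM. The DMSO libraries were far above all treated libraries, and the doses overlapped. The gene fell by 64.2% at 5 µM (log2 fold change -1.48, SE 0.13, edgeR adjusted p = 0.000108). At 10 µM it fell by 65.7% (log2 fold change -1.54, SE 0.13, adjusted p = 1.67e-05). From 5 µM to 10 µM the log2 difference was -0.06, with a 95% interval of -0.34 to 0.22. Without 10 µM replicate 1 the value at 10 µM against DMSO was -1.70 (adjusted p = 4.39e-10) and that between the doses -0.22 (adjusted p = 0.0932). HILPDA lies on chromosome 7 at 128455849 to 128458418, on the plus strand, and 8.45% and 8.99% of its exon length is shared with 2 other annotated transcripts on the same strand that are not in the count table.

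PNPLA2, the lipase that HILPDA inhibits, was measured at 127, 124 and 135 CPM in DMSO, 130, 138 and 122 CPM at 5 µM, and 154, 122 and 122 CPM at 10 µM. The groups overlapped. The log2 fold change was 0.01 (95% interval -0.22 to 0.23) at 5 µM and 0.04 (-0.19 to 0.27) at 10 µM, with edgeR adjusted p-values of 0.981 and 0.808, and without 10 µM replicate 1 the 10 µM value was -0.09. After removal of the trend with gene length and GC content it was 0.20 (adjusted p = 0.0118), also under a 1.5-fold change. An annotated antisense gene overlaps 10.4% of the PNPLA2 exon length, and a different one 17.8% of that of PLIN3. The strand setting of the counting is not known here, so reads of such partners may not have been kept apart.

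G0S2, the other PNPLA2 inhibitor, was barely detected. It had 12, 23 and 3 counts in DMSO, 25, 3 and 9 at 5 µM, and 82, 14 and 0 at 10 µM. The spread within the 10 µM group was wider than any difference between groups. The log2 fold change at 10 µM was 1.30 (95% interval -1.66 to 4.26) and became -0.95 without 10 µM replicate 1, so no direction can be read. The 10 µM library without a count allows up to 0.0611 CPM.

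DGAT1 and DGAT2, which catalyse the last step of triglyceride synthesis with unrelated protein folds, did not pass the test at either dose. DGAT1 was at 33.9, 31.1 and 34.8 CPM in DMSO, 32.6, 33.4 and 28.4 CPM at 5 µM, and 41.4, 26.8 and 33.5 CPM at 10 µM. Its log2 fold change was -0.08 (95% interval -0.40 to 0.24) at 5 µM and 0.03 (-0.29 to 0.35) at 10 µM, the latter -0.15 without 10 µM replicate 1. DGAT2 was at 8.27, 8.70 and 8.96 CPM in DMSO, 9.99, 9.43 and 7.84 CPM at 5 µM, and 7.77, 9.15 and 7.85 CPM at 10 µM. Its log2 fold change was 0.07 (-0.22 to 0.36) at 5 µM and -0.07 (-0.35 to 0.22) at 10 µM. For both genes the groups overlapped, and a fall as large as that of HILPDA lies outside these intervals. Another annotated gene on the same strand, not in the count table, shares 10.7% of the DGAT1 exon length. HSF1, on the opposite strand and in the count table, shares 3.36% of it, so reads of these genes may not have been kept apart.

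**Figure D2:**
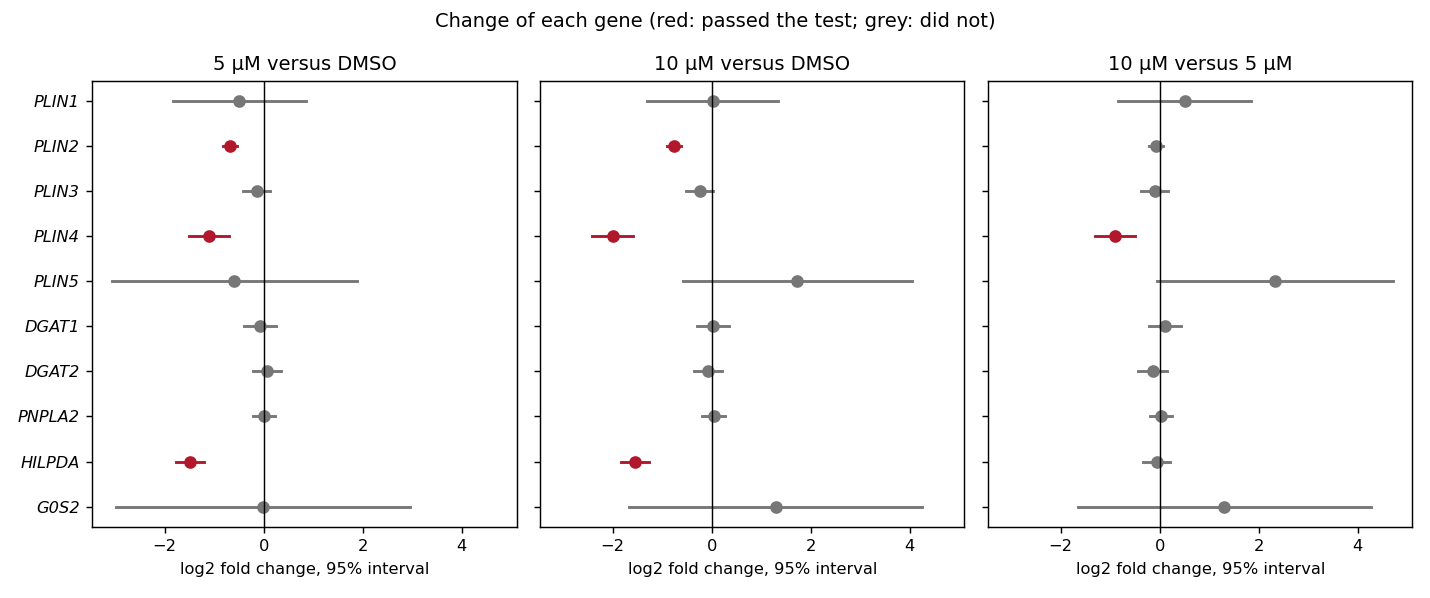
Each panel shows 1 comparison, with the log2 fold change on the horizontal axis and the 10 genes as rows; points are fitted values, bars are 95% intervals from the edgeR fit, red marks genes that passed the test and grey those that did not. HILPDA, PLIN2 and PLIN4 are red and left of 0 at both doses, PLIN4 alone is red between the doses, and the bars of PLIN1, PLIN5 and G0S2 are wide because these genes had few counts.

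Ratios of 1 gene to another within a library do not depend on how libraries are scaled. The count of HILPDA relative to PNPLA2 was 0.234, 0.255 and 0.211 in DMSO, 0.0783, 0.0790 and 0.0919 at 5 µM, and 0.0809, 0.0764 and 0.0753 at 10 µM. Its mean log2 value differed from that in DMSO by -1.49 at 5 µM and -1.59 at 10 µM, with no overlap. The ratio of PLIN2 to PLIN3 was 5.41, 5.57 and 5.63 in DMSO, 3.86, 3.60 and 3.99 at 5 µM, and 3.36, 4.17 and 4.31 at 10 µM, a log2 difference of -0.54 and -0.50. In the two-sided exact permutation test of 3 against 3 libraries these 4 differences had p = 0.1, the smallest value that the design allows, and an adjusted value of 0.200 over the 8 tests of ratios. DGAT2 relative to DGAT1 differed by 0.15 at 5 µM (exact permutation p = 0.200, adjusted 0.320) and by -0.08 at 10 µM (p = 0.800, adjusted 0.900), with the groups overlapping. G0S2 relative to PNPLA2, taken with 0.5 added to each rounded count, differed by -0.15 and -0.38 (exact permutation p = 0.800 and 0.900, adjusted 0.900 for both).

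A further pair of ratios, chosen after their values were seen and therefore not tested, describes how the genes that fell compare. PLIN4 relative to PLIN2 was 0.0190, 0.0167 and 0.0175 in DMSO, 0.0131, 0.0162 and 0.0103 at 5 µM, and 0.00603, 0.00823 and 0.00827 at 10 µM, so it was lower at 10 µM than in any other library. HILPDA relative to PLIN2 was 0.0444 to 0.0501 in DMSO, 0.0259 to 0.0281 with 5 µM and 0.0250 to 0.0314 at 10 µM, and the doses overlapped.

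**Figure D3:**
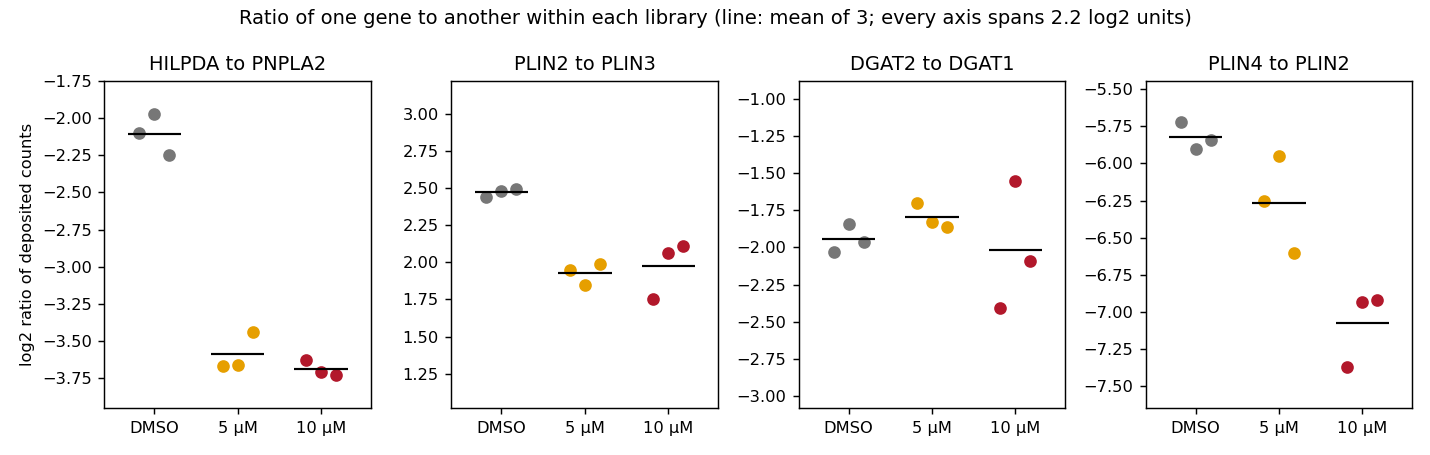
The 4 panels plot the log2 ratio of the deposited counts of 1 gene to another in each library, grouped as DMSO, 5 µM and 10 µM, with a line at the mean of 3 and axes of equal span. HILPDA to PNPLA2 and PLIN2 to PLIN3 drop at 5 µM with no overlap with DMSO, DGAT2 to DGAT1 overlaps in all groups, and PLIN4 to PLIN2 is lowest at 10 µM.

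The genes whose levels over the 9 libraries were most like those of each member that fell were found by the root mean square difference of log2 CPM, centred on the DMSO mean, among genes with a DMSO mean of at least 1 CPM. For PLIN2 these were GRK6, a kinase of G protein-coupled receptors (0.0536), CENPH, a kinetochore protein (0.0595), and CTNNAL1, a catenin-like protein (0.0630). CENPH had means of 42.4, 25.8 and 24.8 CPM in DMSO, 5 µM and 10 µM. For PLIN4 they were CLMN (0.140), the Wnt receptor FZD1 (0.143) and the collagen VI chain COL6A2 (0.175), and FZD1 stood at 76.4, 36.6 and 20.2 CPM in the 3 groups. For HILPDA they were the nuclear envelope gene NRM (0.182), the collagen I chain COL1A1 (0.234) and the globin gene CYGB (0.251), with COL1A1 at 10.3, 4.11 and 3.87 CPM. By Pearson correlation in place of this distance none of the 3 genes was shared for any of the 3 members, and HILPDA and PLIN2 then stood among the top 3 of each other, with r = 0.994 over 9 libraries that share their groups.

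The other genes were taken from 9 lists of lipid genes and 1 list of HIF subunits and hypoxia target genes, all written from general knowledge. These lists too were chosen with earlier results of these data known, so their shares are descriptions beside the background. Of the 80 lipid genes tested, 3 (3.75%) were lower at 5 µM, SLC27A1, SREBF1 and ANGPTL4, and none was higher. The background was 2.72% and 2.14% of all genes, so the share lower was near it. When only the groups compared were fitted, 5 were lower and 1 higher at 5 µM. With no limit on the fold change these counts were 7 and 4, and with a limit of 2-fold 1 and 0. The background was not counted in these other settings. The absence of higher genes is that of the edgeR test, DESeq2 and limma-voom with the 1.5-fold limit, and 11 of these genes were higher at an unadjusted p under 0.05 by edgeR. BSCL2 (log2 fold change 0.76 at 5 µM) passed as higher when only the groups compared were fitted (adjusted p = 1.73e-05) and without 10 µM replicate 1 (adjusted p = 1.86e-05). At 10 µM 16 of the 80 (20.0%) were lower and 5 (6.25%) higher, against 10.5% and 8.57%. These counts moved with the processing: 12 were lower and 4 higher with the length and GC trend removed. Without 10 µM replicate 1 they were 18 and 4, and with a limit of 2-fold 5 and 1. The median log2 fold change of the 80 genes was -0.08 at 5 µM and -0.06 at 10 µM. The hypoxia list is described after the lipid genes.

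Of 11 genes tested for glycerolipid synthesis, 1 was lower at 10 µM, LPIN2, a phosphatidate phosphatase (log2 fold change -0.93, SE 0.18, adjusted p = 0.00305). Of 11 acyl-CoA synthetases, which activate fatty acids, 4 were lower at 10 µM and 1 higher. For these lists too the background at 10 µM was 10.5% lower and 8.57% higher. SLC27A1, which takes up and activates fatty acids, had a log2 fold change of -1.14 (SE 0.11, adjusted p = 5.61e-05), and ACSL4 one of -0.73 (SE 0.14, adjusted p = 0.00347) that dropped below a 1.5-fold change without 10 µM replicate 1 (-0.56). ACSL1 was higher, with a log2 fold change of 0.67 (SE 0.09, adjusted p = 0.000462). Neither of the sterol ester enzymes SOAT1 and SOAT2 passed.

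Of 10 droplet assembly genes tested, 1 was higher and 2 lower at 10 µM. For this list and the lipases below, the background was 8.57% higher and 10.5% lower. HSD17B11, a droplet-bound dehydrogenase, had mean levels of 40.2, 28.8 and 21.3 CPM in DMSO, 5 µM and 10 µM (log2 fold change -0.92 at 10 µM, SE 0.11, adjusted p = 0.000239). BSCL2 encodes seipin, which organises the sites where droplets form. It stood at 14.2 to 16.1 CPM in DMSO, 22.2 to 29.6 CPM with 5 µM, and 87.1, 21.3 and 21.7 CPM at 10 µM, and its log2 fold change of 1.52 at 10 µM became 0.50 without replicate 1. That call was lost without any 1 DMSO library or 5 µM replicate 2, with limma-voom, and when only the groups compared were fitted (adjusted p = 0.0773). CIDEC, which promotes droplet fusion in fat cells, was at 0.370 to 0.520 CPM in DMSO and at 0, 0.0979 and 0 CPM at 10 µM, and its call (adjusted p = 0.0387) was lost without any 1 DMSO library, without 5 µM replicate 2 or 3, without 10 µM replicate 3, and with the replicate block (adjusted p = 0.0677). The lipases DDHD2 (-0.81, SE 0.08, adjusted p = 5.27e-05) and MGLL, which cleaves the last fatty acid from glycerol (-0.75, SE 0.08, adjusted p = 0.000101), were the 2 of 8 other lipase genes lower at 10 µM, and MGLL fell short of 1.5-fold with the length and GC trend removed (-0.50).

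Among fatty acid binding proteins, 2 of 4 tested were higher and 1 lower at 10 µM. The background for these and the oxidation genes below was 8.57% higher and 10.5% lower. FABP5 had a log2 fold change of 0.86 (SE 0.13, adjusted p = 0.000982) and FABP7 one of -1.72 (SE 0.38, adjusted p = 0.0068), while that of FABP6 (0.99, adjusted p = 0.0359) became 0.48 without 10 µM replicate 1 and was lost without that or any 1 DMSO or 5 µM library. It was also lost with the replicate block (adjusted p = 0.0566), with limma-voom (0.0828), when only the groups compared were fitted (0.0804), and with the length and GC trend removed (0.0506, or 0.0816 with the block as well). Of 18 genes of mitochondrial fatty acid oxidation, SLC25A20, the carrier that brings acylcarnitines into mitochondria, was higher (1.00, SE 0.08, adjusted p = 1.21e-05) and ACADS, a dehydrogenase for short fatty acids, lower (-0.63, SE 0.14, adjusted p = 0.00585). ACADS was under 1.5-fold with the length and GC trend removed (-0.55) and without DMSO replicate 3 (-0.57).

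Regulators of these genes were also measured. SREBF1, whose product SREBP-1 drives fatty acid synthesis genes, stood at 163, 158 and 164 CPM in DMSO, 93.5, 95.3 and 90.5 CPM at 5 µM, and 54.3, 53.3 and 58.4 CPM at 10 µM. The groups did not overlap, and the log2 fold change was -0.80 at 5 µM (SE 0.07, adjusted p = 0.000108) and -1.55 at 10 µM (SE 0.07, adjusted p = 4.63e-07). PPARG, the PPAR best known from fat cells, was at 116 to 123 CPM in DMSO, 100 to 104 CPM with 5 µM and 66.7 to 79.3 CPM at 10 µM, and its change at the higher dose was -0.74 on the log2 scale (SE 0.08, adjusted p = 0.000116). NR1H3, the sterol receptor LXR alpha, had a value of -0.63 at 10 µM (SE 0.17, adjusted p = 0.0147), and -0.47 without 10 µM replicate 3, under 1.5-fold. With the length and GC trend removed NR1H3 was also under 1.5-fold (-0.55, or -0.57 with the replicate block as well). These were the 3 of 11 regulators that passed at 10 µM, all lower. For regulators and for the PPAR target genes below, the background at 10 µM was 10.5% lower and 8.57% higher. Of 5 other PPAR target genes, ANGPTL4, a secreted inhibitor of lipoprotein lipase, and PDK4, a kinase that restrains pyruvate oxidation, were lower at 10 µM, with log2 fold changes of -0.76 (SE 0.14, adjusted p = 0.00227) and -0.92 (SE 0.16, adjusted p = 0.00161). At 5 µM the value of ANGPTL4 was larger, at -1.12 (SE 0.14, edgeR adjusted p = 0.00097), and that of PDK4 was -0.18 (adjusted p = 0.56). The difference of ANGPTL4 between the doses, 0.36, did not pass (edgeR adjusted p = 0.137).

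The list of HIF subunits and hypoxia target genes, to which HILPDA would belong, held the largest share of lower genes at 5 µM among the 10 lists. Of its 14 genes tested, 7 were lower at 5 µM, where the background was 2.72%, and 6 at 10 µM, where it was 10.5%. None was higher, also at an unadjusted p under 0.05 by edgeR, and the medians were -0.62 and -0.54. CA9, a carbonic anhydrase, had 79.5, 81.5 and 83.5 CPM in DMSO, 34.4, 30.9 and 32.2 CPM at 5 µM, and 9.73, 8.77 and 11.7 CPM at 10 µM, a log2 fold change of -3.02 at 10 µM (SE 0.11, adjusted p = 1.61e-07). NDRG1, a stress-induced gene, had 501 to 514 CPM in DMSO, 206 to 214 CPM with 5 µM and 125 to 130 CPM at 10 µM, with log2 fold changes of -1.28 (SE 0.06, adjusted p = 3.62e-06) and -1.99 (SE 0.06, adjusted p = 4.81e-08). BNIP3, a receptor for mitophagy, had -1.03 at 10 µM (SE 0.08, adjusted p = 1.59e-05). Its value at 5 µM, -0.59, lay close to the 1.5-fold limit and fell short of it, leaving 6 lower genes, with upper-quartile factors, with at least 1 CPM required in 3 libraries, with the length and GC trend removed (each -0.58), and without DMSO replicate 2 or 5 µM replicate 2 (each -0.57). HIF1A and EPAS1, which encode the alpha subunits and were named after their values were seen, had log2 fold changes at 10 µM of -0.10 (SE 0.16, adjusted p = 0.684) and -1.05 (SE 0.15, adjusted p = 0.00066). Between the doses 2 of the 14, CA9 and NDRG1, were lower at 10 µM than at 5 µM, where the background was 2.59%. In that comparison 10 of the 14 had a value below 0 and 4 above, and 2 were higher at an unadjusted p under 0.05 by edgeR. VEGFA and ADM, also named after their values were seen, passed as lower at 5 µM (-0.67 and -0.91). At 10 µM they were under 1.5-fold (-0.48 and -0.55).

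**Figure D4:**
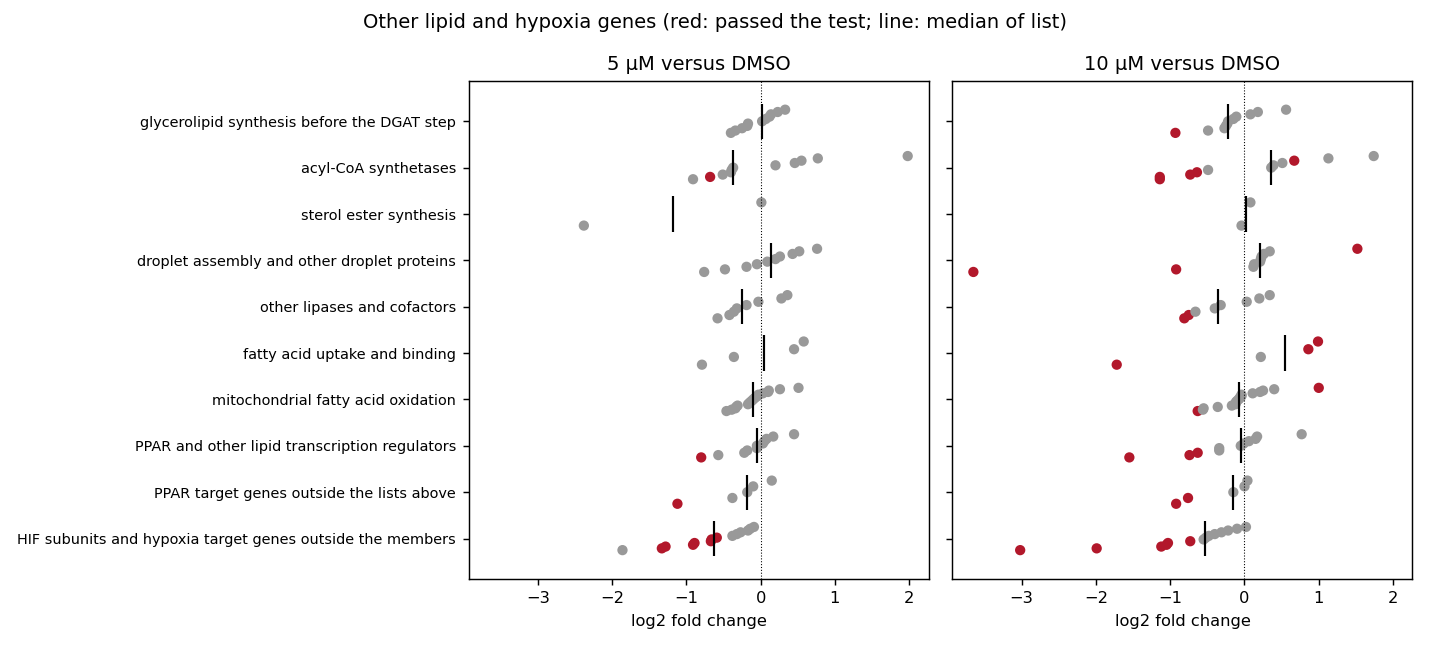
Each point is 1 gene of the 10 lists, with its log2 fold change on the horizontal axis at 5 µM on the left and 10 µM on the right, red where the gene passed the test and grey where it did not, and a line at the median of each list. All 14 points of the hypoxia list lie left of 0 at 5 µM and 13 of 14 at 10 µM, where ANKRD37 is at 0.02, while the lists of droplet assembly and fatty acid uptake hold points on both sides.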

How the data were processed

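mRNA of A375 cells was sequenced in 9 libraries, 3 each for DMSO, 5 µM and 10 µM TP-472. The expected counts deposited by the authors, 1 value per gene symbol and library, were estimated with RSEM 1.2.15 and Bowtie2 2.1.0 on hg38 per the submitters' processing notes, not scaled to library size. The paper describes strand-specific libraries made with oligo-dT beads, while the series design names depletion of ribosomal RNA. Groups and replicates were taken from the sample labels. Expected counts were rounded, and edgeR 4.0.16 (R 4.3.3) tested them in 1 fit of 3 groups over 9 libraries, TMM factors, the default filterByExpr filter and Benjamini-Hochberg adjustment over 16417 genes. Standard errors were taken from the log2 fold change and its F statistic. Limits at 0 counts take 3 counts per library, and the depth of 42483091 counts or more per library limits the rarest genes.

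The members and gene lists were chosen with earlier results of these data known. Named genes were all 10 members, from each of the 10 lists the 3 with the smallest p among those called at 10 µM, and for each member called at 10 µM the 3 genes most like it, beside markers at 0 or highest of their list. Gene positions and exon lengths come from GENCODE on GRCh38. Alternatives were other scaling factors, filters and fold limits, DESeq2 1.42.0, limma-voom (limma 3.58.1), only the groups compared, the replicate number as a block, ribosomal RNA genes left out, removal of a length and GC trend, and each library left out. Scripts were tested on simulated counts. Tables and figures were made with Python 3.11.15, pandas 2.3.3, numpy 2.4.6, scipy 1.17.1 and matplotlib.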

Additional observations from a re-analysis of the deposited data

Results flagged for a closer look

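Responses that differed between the doses, by the edgeR test of 10 µM against 5 µM with adjusted p under 0.05 and a fold change of at least 1.5, were found for PLIN4 among the lipid droplet genes. Its log2 difference of -0.90 (adjusted p = 0.0159) was lost without 5 µM replicate 1 or 2 and with only the doses in the fit. SREBF1 differed by -0.75 (adjusted p = 0.000226), PDK4 by -0.75 (adjusted p = 0.0192), NDRG1 by -0.72 (adjusted p = 0.000128) and CA9 by -1.69 (adjusted p = 4.06e-05) on the same log2 scale, each lower at 10 µM in 3 of 3 libraries than in any library at 5 µM.
With the length and GC trend removed, the differences of SREBF1 (-0.56) and NDRG1 (-0.54) were under 1.5-fold. That of PDK4 was lost without 5 µM replicate 1 (-0.65, adjusted p = 0.0855), without 5 µM replicate 3 (-0.76, adjusted p = 0.0678), without 10 µM replicate 1 (-0.58, under 1.5-fold) and with only the doses in the fit (-0.73, adjusted p = 0.106).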

How the results depend on the processing

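The falls of HILPDA, PLIN2 and PLIN4 at 5 µM and at 10 µM passed the test under all 21 alternatives that keep the 1.5-fold limit or drop it. With a limit of 2-fold HILPDA and PLIN4 still passed at both doses and PLIN2 did not. The number of members lower at 10 µM than at 5 µM was 1, and 0 when only the groups compared were fitted and with a limit of 2-fold. Leaving out each library in turn gave 0 to 1, with 0 without 5 µM replicate 1 and without 5 µM replicate 2. Over all alternatives the log2 fold change of HILPDA at 10 µM ran from -1.71 to -1.47, that of PLIN2 from -0.80 to -0.71 and that of PLIN4 from -2.06 to -1.76. No call of a member or other named gene changed sign. Values that were not called changed sign in 33 of 2098 recomputed values. PLIN1, PLIN5 and G0S2 have no value with at least 1 CPM required in 3 libraries. The replicate block left 3, 3 and 1 members lower. Same-numbered libraries deviated with correlations of -0.108 to 0.108. Libraries of different number were not compared in this way, so whether the numbers pair the libraries cannot be read from these values. The depth limits PLIN1, PLIN5 and G0S2, whose intervals were the widest of the members.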
